A study of Mus musculus with 4 samples.

Results

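The regions described here are 1051 wide m6A peaks, a subset of the 22860 peaks called in vehicle-treated mice. Each is at least 400 bp wide in the vehicle list (end minus start) and overlaps, by 1 bp or more, at least 1 of the 31856 peaks called in entacapone-treated mice. The tissue was inguinal white fat, and all mice were C57BL/6 males, 23 weeks old, made obese by a high-fat diet, a state that both treatments share. They were given entacapone, which is used against Parkinson's disease and is known to inhibit FTO, an m6A demethylase, or vehicle. Each treatment has 1 m6A immunoprecipitate (IP) library and 1 input library of poly(A) RNA, and the labels leave unstated whether 1 animal or a pool went into it. With 1 library of each kind there is no replicate and no test, and every value describes these libraries. In bulk tissue, fewer cells of a type, less RNA per cell and less methylation of that RNA cannot be told apart.

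N6-methyladenosine, or m6A, is a methyl mark that the METTL3-METTL14 methyltransferase complex writes into messenger RNA, and that FTO and ALKBH5 can remove. It is known to lie mostly in long internal exons and around stop codons and in 3′ untranslated regions, within a short consensus whose core letters are often GGACT in DNA. In m6A-IP sequencing, fragments of RNA that hold a mark are pulled down, so marks that lie close together in a transcript can merge into 1 wide peak, whereas an isolated mark gives a narrow one. Width is thus a property of a called peak and no count of marks.

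Sequence could be shown where a wide peak covered a promoter window of the RefSeq table for GRCm38.p6, which runs from 250 bases before a gene's start to 50 after it. Of the 32851 windows, 22 overlapped a wide shared peak, and they touched 21 of the 1051 peaks. The 5 windows below lay wholly inside a wide peak and are shown because they give the letters beneath these peaks. Capitals mark GGACT on the printed strand, or AGTCC, which is GGACT on the other strand.

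Poc1b window, chr10:99106832-99107131, strand +: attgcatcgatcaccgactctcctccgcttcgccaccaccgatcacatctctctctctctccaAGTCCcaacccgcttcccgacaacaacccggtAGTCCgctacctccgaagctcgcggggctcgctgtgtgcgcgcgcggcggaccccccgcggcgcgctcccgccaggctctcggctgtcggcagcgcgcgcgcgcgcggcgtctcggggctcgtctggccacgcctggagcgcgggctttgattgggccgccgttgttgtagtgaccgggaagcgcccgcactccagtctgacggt
Fancl window, chr11:26386834-26387133, strand +: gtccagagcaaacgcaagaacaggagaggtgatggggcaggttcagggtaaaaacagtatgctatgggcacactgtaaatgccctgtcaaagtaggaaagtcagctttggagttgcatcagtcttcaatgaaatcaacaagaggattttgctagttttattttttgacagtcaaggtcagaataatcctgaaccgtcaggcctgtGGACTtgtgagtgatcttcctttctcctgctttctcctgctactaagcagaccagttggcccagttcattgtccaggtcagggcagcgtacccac
Ranbp17 window, chr11:33513704-33514003, strand -: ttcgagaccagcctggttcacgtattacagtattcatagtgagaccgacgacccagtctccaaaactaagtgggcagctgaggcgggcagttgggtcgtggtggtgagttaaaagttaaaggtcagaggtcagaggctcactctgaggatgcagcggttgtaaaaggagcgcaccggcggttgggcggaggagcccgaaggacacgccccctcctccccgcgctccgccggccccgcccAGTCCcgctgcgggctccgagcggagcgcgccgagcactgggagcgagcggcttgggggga
Svep1 window, chr4:58206547-58206846, strand -: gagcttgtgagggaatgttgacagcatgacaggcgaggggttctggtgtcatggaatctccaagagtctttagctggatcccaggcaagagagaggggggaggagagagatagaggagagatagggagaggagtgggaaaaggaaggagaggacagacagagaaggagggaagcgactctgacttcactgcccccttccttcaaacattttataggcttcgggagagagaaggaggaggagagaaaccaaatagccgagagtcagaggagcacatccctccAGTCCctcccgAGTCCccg
Gm13205 window, chr4:148952273-148952572, strand -: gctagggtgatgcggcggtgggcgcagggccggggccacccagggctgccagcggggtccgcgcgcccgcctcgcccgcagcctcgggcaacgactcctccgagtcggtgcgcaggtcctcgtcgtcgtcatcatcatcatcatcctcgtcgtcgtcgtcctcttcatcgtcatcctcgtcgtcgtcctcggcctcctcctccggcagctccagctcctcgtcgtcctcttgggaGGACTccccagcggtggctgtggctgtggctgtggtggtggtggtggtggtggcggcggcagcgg

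The windows of Fancl and Gm13205 hold GGACT on the printed strand, and those of Poc1b, Ranbp17 and Svep1 hold it on the other strand alone. GGACT occurs on the printed strand of 26.1% of all windows and on either strand of 45.5%. It is a short and common string, so a match is a description of these letters and no site. Poc1b encodes a centriolar protein, Fancl a ubiquitin ligase of the Fanconi anaemia DNA repair pathway, Ranbp17 a relative of the nuclear transport receptors and Svep1 a large extracellular matrix protein. The peak over the Poc1b window was 241 bp wide in the entacapone list and 562 bp in the vehicle list. The peaks over the windows of Fancl (410 bp with entacapone, 432 bp with vehicle), Ranbp17 (388 bp with entacapone, 423 bp with vehicle) and Svep1 (554 bp with entacapone, 507 bp with vehicle) differed less in width. The midpoints of these 4 peaks fell in no annotated gene span, just outside the gene start. The peak over the Gm13205 window lay within the span of Casz1, a zinc finger transcription factor, and was 463 bp wide with entacapone and 456 bp with vehicle.

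Nearly every wide vehicle peak had an overlapping entacapone peak. Of the 1057 vehicle peaks of 400 bp or more, 1051 (99.4%, exact binomial 95% interval 98.8 to 99.8) overlapped, against 78.7% of vehicle peaks of any width. The intervals given for shares cover counting error only. The share grew with width, being 63.6% under 100 bp, 84.0% from 100 to under 200 bp, 95.7% from 200 to under 300 bp and 98.7% from 300 to under 400 bp. A wider interval overlaps more often by construction. By the midpoint alone, which does not gain from width in the vehicle list, 88.6% (86.6 to 90.5) of the wide peaks lay inside an entacapone peak. For the narrower classes, in the same order, that share was 60.5%, 77.4%, 85.9% and 88.5%, so it levelled off from 300 bp upward. The 6 wide vehicle peaks with no entacapone overlap lay in Xkr4 (412 bp), Sgo2a (470 bp), Fam222a (401 bp), Ccdc61 (705 bp) and Zfp61 (449 bp) and, for 1 peak of 448 bp, in no gene span. Of the 1590 entacapone peaks of that width, 34 overlapped no vehicle peak. The widest of these lay in Fam20c (715 bp), a kinase of secreted proteins, Arhgap29 (704 bp) and Eomes (698 bp), a T-box transcription factor. The entacapone input also held more counts, 33164576 against 24548212 with vehicle. The depth of the IP libraries is not given by the files, and the part of depth in these shares was not tested.

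Most wide peaks were also wide with entacapone. The entacapone partner, taken as the peak that shares the most bases, had a median width of 468 bp (quartiles 367 and 573, range 49 to 1893), against 494 bp (437.5 and 588, range 400 to 1657) for the vehicle peaks. Among the 16951 narrower shared peaks the medians were 151 bp with entacapone and 126 bp with vehicle. The partner reached 400 bp for 738 of the wide peaks (70.2%), and 11.0% of all shared vehicle peaks had a partner of that width. The median difference, entacapone minus vehicle, was -11 bp (95% order-statistic interval -22 to -5). The partner was wider for 460 peaks, narrower for 584 and equal for 7. Choosing on vehicle width sets much of this difference, so it is a description and carries no test. Chosen the other way round, by an entacapone width of 400 bp or more, 1556 peaks overlapped a vehicle peak. In that set the median was 495 bp with entacapone and 386 bp with vehicle, a median difference of 110 bp. Where both partners reached 400 bp the median difference was 12 bp (8 to 16), with entacapone wider for 460 and narrower for 271. The sign of the median difference thus changed with the list in which the width was required. It also changed with the entacapone width taken, since the span of all overlapping entacapone peaks gave a median difference of 5.0 bp in place of -11 bp. At the threshold itself 7 shared vehicle peaks were exactly 400 bp wide, among them those of Daxx (entacapone partner 516 bp), Rfx5 (367 bp) and Gm28644 (264 bp). Another 4 were 1 bp narrower and fell outside, among them Rps6kb1 (548 bp), Dnajb9 (271 bp) and Arl15 (522 bp).

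**Figure D1:**
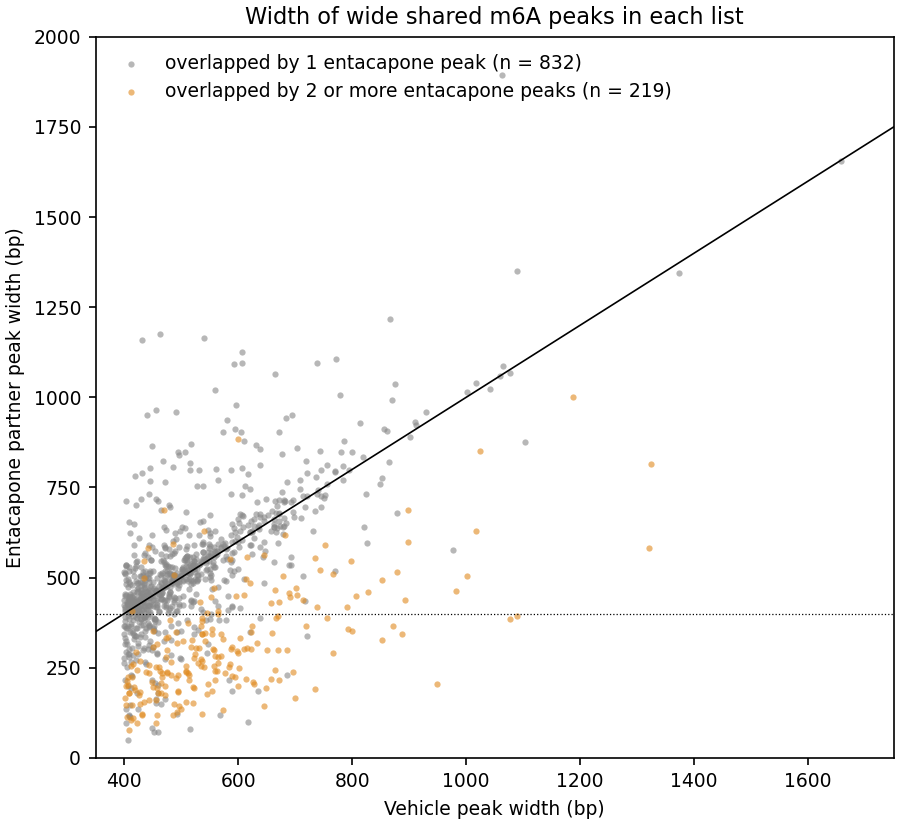
Width in bp of the entacapone partner peak (y axis) against width of the vehicle peak (x axis) for the 1051 wide shared peaks. The solid line marks equal width and the dotted line 400 bp. Orange points, overlapped by 2 or more entacapone peaks (219), lie mostly below the line, and grey points, overlapped by 1 (832), gather along it.

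Where a wide peak had a single partner that was also wide, its boundaries were often nearly the same in both lists. Of the 685 members with a single partner that was itself 400 bp or more, the lower edge moved by a median of 18 bp and the upper edge by 17 bp. Both edges lay within 50 bp of each other for 420 of them (61.3%, 57.6 to 65). Leaving out split peaks and narrower partners favours edges that agree. These edge values therefore do not describe the wide peaks as a whole. Entacapone peaks covered a median of 94.2% of the bases of a wide vehicle peak, and 53 members were covered to less than 50%. A wide vehicle peak was overlapped by 1 entacapone peak in 832 cases, by 2 in 205, by 3 in 13 and by 4 in 1, so that 20.8% (18.4 to 23.4) were split in the entacapone list. Splitting ran both ways, since 25.4% (23.3 to 27.7) of the 1556 wide entacapone peaks that overlap a vehicle peak were overlapped by 2 or more vehicle peaks. The member overlapped by 4 was that of Zfp866, a C2H2 zinc finger gene, at 948 bp with vehicle and 205 bp for its largest-overlap partner with entacapone. Those 4 entacapone peaks together were 514 bp wide.

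Emilin1, an elastin-associated glycoprotein of the extracellular matrix, had the widest vehicle peak in a gene, 1325 bp at chr5:30917378-30918703, 3.24 kb from the gene end. It was met by 2 entacapone peaks, of which the larger partner was 815 bp, and which summed to 1278 bp. Kat6b, a histone acetyltransferase, had a vehicle peak of 1321 bp that was met by 3 entacapone peaks, the largest-overlap one 581 bp wide. A second wide peak of Kat6b ran the other way, at 858 bp with entacapone and 703 bp with vehicle. Coordinates are given as deposited, on mm10, the assembly named GRCm38 in RefSeq.

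Other very wide peaks differed little between the lists. Ifnar2, a subunit of the type I interferon receptor, measured 1068 bp with entacapone and 1077 bp with vehicle, 1.27 kb from the gene end. Mga, a MAX-binding transcription factor, measured 1087 bp with entacapone and 1065 bp with vehicle. Itpkb, an inositol trisphosphate kinase, measured 1059 bp with entacapone and 1060 bp with vehicle. Arid1a, a subunit of the SWI/SNF chromatin remodelling complex, measured 1040 bp with entacapone and 1017 bp with vehicle. Map1a, a microtubule-associated protein, measured 1024 bp with entacapone and 1042 bp with vehicle. Thus 5 of the 15 widest differed by 23 bp or less, while the widths of Kat6b, Trib1, Nipbl and Atg4a lay farthest apart. Trib1, a pseudokinase adaptor for protein degradation, was 394 bp with entacapone and 1089 bp with vehicle, and Nipbl, which loads cohesin onto chromatin, was 386 bp with entacapone and 1077 bp with vehicle. Each was met by 3 entacapone peaks. Klf13, a zinc finger transcription factor, was 1000 bp with entacapone and 1188 bp with vehicle, and Crebbp, a histone acetyltransferase and coactivator, was 875 bp with entacapone and 1104 bp with vehicle. Atxn1l, a transcriptional corepressor related to ataxin, was wider with entacapone, at 1351 bp, than with vehicle, at 1089 bp.

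**Figure D2:**
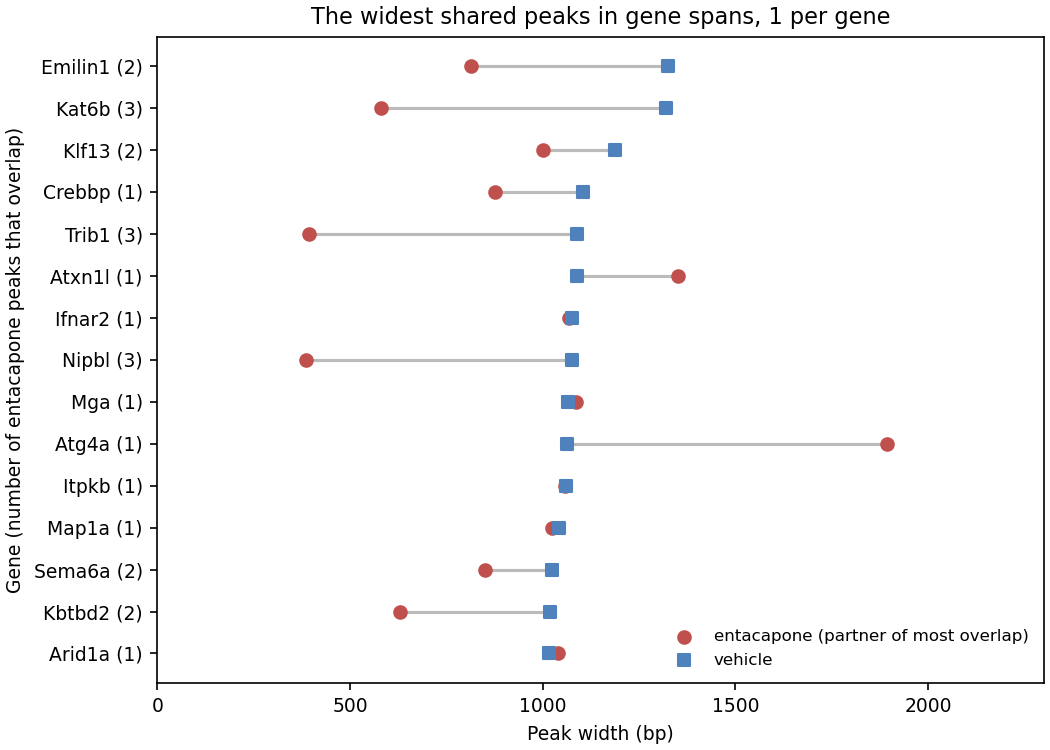
Widths in bp of the widest shared peak of each of 15 genes, chosen by vehicle width, with the entacapone partner of most overlap as circles and the vehicle peak as squares. Numbers in brackets count the entacapone peaks that overlap. Ifnar2, Mga, Itpkb, Map1a and Arid1a lie within 23 bp of each other in the lists. Kat6b, Trib1 and Nipbl, each met by 3 entacapone peaks, have the longest lines to the left.

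The differences in width reached from -743 to 830 bp. Besides Zfp866, Kat6b, Trib1 and Nipbl, the narrowest relative to vehicle was Ppp1r3c, a glycogen-targeting subunit of protein phosphatase, at 190 bp with entacapone and 735 bp with vehicle, where 3 entacapone peaks summed to 487 bp. At the other end, Atg4a, a protease that processes the autophagy protein LC3, was 1893 bp with entacapone and 1063 bp with vehicle, and Auts2, a nuclear regulator of transcription, was 1160 bp with entacapone and 431 bp with vehicle. Trappc9, of the TRAPP trafficking complex, was 1164 bp with entacapone and 540 bp with vehicle, and Ticam1, the adaptor of Toll-like receptor signalling also called TRIF, was 1125 bp with entacapone and 606 bp with vehicle. The midpoint of the Trappc9 peak lay in 2 gene spans, so its gene is uncertain. Gm31166 was 1175 bp with entacapone and 463 bp with vehicle.

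Wide peaks were not set apart by high enrichment. The fold enrichment is the authors' value for each peak within its own list. In the entacapone list the partners of wide peaks had a median fold of 3.19 and those of narrower shared peaks 3.03. In the vehicle list the wide peaks had a median of 3.29 and the narrower shared peaks 3.19. The folds of the wide peaks ranged from 1.56 to 10.6 in the entacapone list and from 1.66 to 11.8 in the vehicle list. In the entacapone list the highest folds were those of Hspa12b (10.6), a member of the HSP70 superfamily, Fbxl17 (10.4), an F-box protein of ubiquitin ligases, 9130214F15Rik (9.93) and Notch3 (9.08), a Notch receptor of vascular smooth muscle. In the vehicle list they were those of Gpatch1 (11.8), a region of chromosome 11 outside gene spans (11.1), Gm16685 (10.9), Zbtb3 (10.5) and Stil (10.1), a centriole duplication factor. The next highest fold in the entacapone list was that of Slc12a9 (8.44). The 5 leading genes or regions of the lists had no name in common. No background was computed for such short lists, so this describes them and shows no difference between treatments. The widest peaks had moderate folds, such as 4.08 for Emilin1 in the entacapone list and 2.58 in the vehicle list.

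Nearly all wide peaks lay in protein-coding genes, toward the 3′ end but often some way before it. A gene span held the midpoint of 1020 of the 1051 (97.1%), and 984 (93.6%, 92 to 95) were in protein-coding spans, against 90.9% (90.4 to 91.3) of narrower shared peaks. A further 31 lay in lncRNA spans, 5 in spans of another kind and 31 in none. For 82 members the midpoint lay in 2 or more spans, and the gene given is then uncertain. Among the peaks named here these include those of Trappc9, Rbm12, 6430550D23Rik and Gm28644, and the 447 bp vehicle peak of Chd8. The strand was known for 793, and the positions that follow are within those. The midpoint was nearer the gene end than the gene start for 80.8% (77.9 to 83.5), against 72.5% (71.7 to 73.2) of narrower shared peaks. It lay within 5 kb of the gene end for 67.5% (64.1 to 70.7) of the wide and 55.2% (54.4 to 56.1) of the narrower shared peaks. The last 1 kb before the gene end held 17.8% (15.2 to 20.6) of the wide and 19.0% (18.3 to 19.7) of the narrower shared peaks, intervals that overlap. The separation came from 1 to 5 kb before the gene end, which held 49.7% (46.1 to 53.2) of the wide and 36.2% (35.4 to 37.1) of the narrower ones. At the gene start the order turned round, with 4.41% (3.09 to 6.09) of the wide and 9.55% (9.04 to 10.1) of the narrower shared peaks within 1 kb. A wide peak that lies inside a span has its midpoint some way from either end, so short distances can depend on width itself. Some wide peaks reached past the span, with midpoints as near as 114 bp to the gene end and 138 bp to the gene start. The part of width in these shares was not tested.

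The change with width was gradual. From under 100 bp upward, the share within 5 kb of the gene end was 49.1%, 56.4%, 60.5%, 65.6% and 67.5% in the 5 width classes. The share within 1 kb of the gene start was 13.6%, 8.41%, 6.52%, 4.00% and 4.41%, so its last classes did not differ beyond counting error. The gene spans that held wide peaks were not longer, their median being 29370.5 bp for wide and 32946 bp for narrower shared peaks. The median distance to the gene end was 2988.5 bp (2727 to 3238.5) for wide and 3862 bp (3708 to 4015.5) for narrower shared peaks. Spans include introns, and exons were not used here, so the share in last exons or untranslated regions was not computed. In genes with at least 3 vehicle peaks, the wide peak was the one nearest the gene end in 27.9% (23.9 to 32.1) of cases, and narrower shared peaks were in 23.8% (22.8 to 24.8), intervals that overlap. The wide peak was nearest the gene start in 15.9% (12.8 to 19.5), and narrower shared peaks were in 21.9% (20.9 to 22.8). The number of peaks per gene, on which both shares depend, was not matched.

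**Figure D3:**
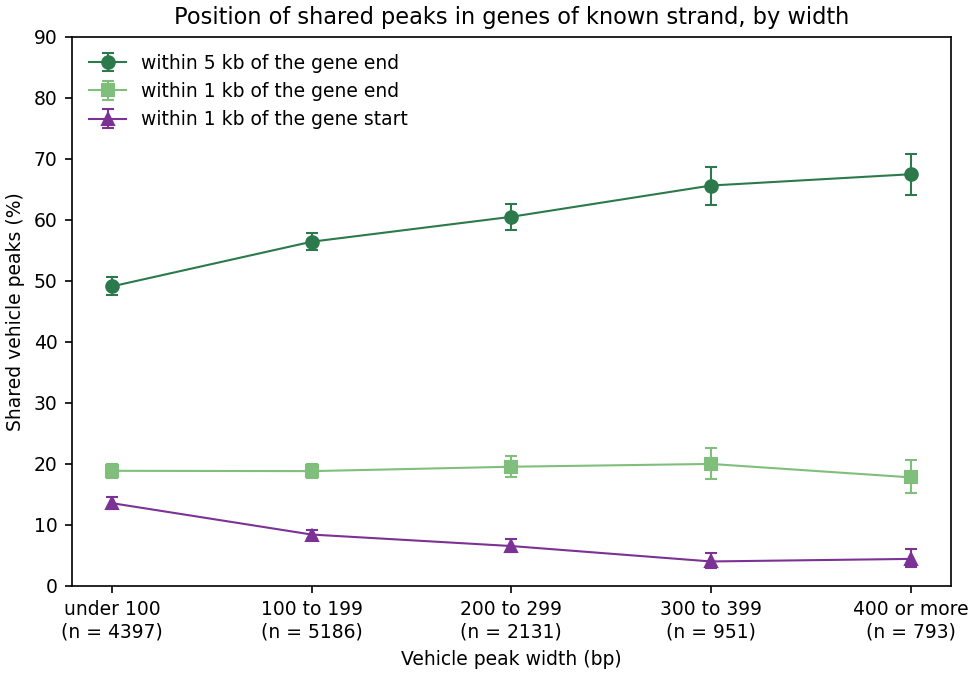
Share in percent of shared vehicle peaks within 5 kb of the gene end, within 1 kb of the gene end and within 1 kb of the gene start (y axis), by vehicle width class (x axis), with exact binomial 95% intervals. The share within 5 kb of the gene end is 49.1% under 100 bp and 67.5% at 400 bp or more, and the share near the gene start is 13.6% and 4.41% in those classes.

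Some wide peaks lay outside protein-coding genes. The widest of all 1051 lay in no gene span on chromosome Y, chrY:90811247-90812904, and was 1656 bp with entacapone and 1657 bp with vehicle. Another on the same chromosome, chrY:90737500-90738874, was 1345 bp with entacapone and 1374 bp with vehicle. Their edges were nearly equal in the lists, and near-identical sequence elsewhere on the sex chromosomes could share their reads, so their place is uncertain. Among lncRNA spans, Gm5817 was 688 bp with entacapone and 898 bp with vehicle, A530072M11Rik was 770 bp with entacapone and 709 bp with vehicle, and LOC115489488 was 290 bp with entacapone and 766 bp with vehicle. The peak of LOC115489488 was met by 2 entacapone peaks that summed to 565 bp.

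The wide peaks lay in 951 genes, 11.4% of the 8320 genes with a shared peak of any width. A single wide peak was found in 889 genes, 2 in 57, 3 in 4 and 5 in 1. Of the 951, 708 (74.4%) also held a wide entacapone peak over a vehicle peak, which is 50.9% of the 1392 genes with such a peak. Of all genes with a shared peak, 16.7% held such a peak. The gene sets draw on the same overlapping pairs, since 738 wide peaks had a partner of 400 bp or more, so they are not independent. Genes with a wide peak had a median of 4 peaks in the entacapone list and 3 in the vehicle list, and the other genes had 2 in each. The share with a wide peak was 5.49% of genes with 1 vehicle peak, 9.81% with 2, 14.8% with 3 to 4 and 28.3% with 5 or more. A gene with more peaks has more chances to hold a wide one, so 7 of the 12 lists below are also given among genes of like peak number. With 1 to 2 vehicle peaks, 7.30% of all genes had a wide one.

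Of the genes with 3 wide peaks, Tnrc6c is an effector of microRNA silencing, Rreb1 a zinc finger transcription factor that answers to Ras signalling, Zfp646 a zinc finger gene, and 6430550D23Rik has no role given here. The 3 peaks of Tnrc6c lay within 2.45 kb. They were 438, 422 and 922 bp wide with entacapone, against 408, 434 and 912 bp with vehicle, so each kept its size within 30 bp. Those of 6430550D23Rik lay within 2.43 kb and were 697, 834 and 421 bp with entacapone, against 718, 819 and 496 bp with vehicle. Those of Rreb1 were 272, 451 and 606 bp with entacapone, against 421, 462 and 570 bp with vehicle. Those of Zfp646 were 568, 298 and 455 bp with entacapone, against 437, 557 and 402 bp with vehicle.

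Atg4a, with 5 wide peaks over 158.37 kb, was unlike these. It held 16 entacapone and 20 vehicle peaks. At its wide peaks the widths were 1893, 547, 99, 870 and 71 bp with entacapone, against 1063, 523, 617, 517 and 452 bp with vehicle. The fourth of these shared only 5.42% of the vehicle peak, the lowest coverage among all members. The first lay 167 kb and the others 9.69 to 13.5 kb from the gene end, so 4 of the 5 lay together, at chrX:141150386-141154730, and 1 lay far from them.

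Among the 12 gene lists, chromatin regulators and transcriptional coregulators had the highest share of genes with a wide peak, with an interval that overlaps those of the next lists. Of 141 such genes with a shared peak, 47 (33.3%, 25.6 to 41.8) had a wide one, against 11.4% of all genes. By entacapone width 60 of them (42.6%) did, against 16.7% of all genes. Among genes with 5 or more vehicle peaks, 48.7% of this list and 28.3% of all genes had a wide peak, whereas with 1 to 2 vehicle peaks the shares were 5.56% and 7.30%. With 3 to 4 vehicle peaks they were 25.9% and 14.8%. Beyond Kat6b, Crebbp, Nipbl and Arid1a, Arid1b, the paralogue of Arid1a, was 1038 bp with entacapone and 875 bp with vehicle. Ankrd12, a nuclear cofactor with ankyrin repeats, was 820 bp with entacapone and 864 bp with vehicle. Kat6a, the paralogue of Kat6b, held 2 wide peaks, of 479 and 543 bp with entacapone, against 435 and 510 bp with vehicle. Chd8, a chromatin remodelling ATPase, held peaks of 465 and 477 bp with entacapone, against 665 and 447 bp with vehicle. Med1, the Mediator subunit that binds nuclear receptors and takes part in adipocyte differentiation, held peaks of 382 and 198 bp with entacapone, against 567 and 407 bp with vehicle. Both Med1 peaks were thus narrower with entacapone, and both Kat6a peaks wider. Kmt2d, a histone methyltransferase chosen after its values were seen, was 239 bp with entacapone and 697 bp with vehicle, where 3 entacapone peaks met it.

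Genes of insulin, growth factor and receptor signalling came next. Of 111 with a shared peak, 36 (32.4%, 23.9 to 42.0) had a wide one, against 11.4% of all genes, and 40 (36.0%) did by entacapone width, against 16.7%. By point values, and unlike the chromatin list, this list stood above all genes at each peak number, with 19.1% against 7.30% at 1 to 2 vehicle peaks, 35.1% against 14.8% at 3 to 4, and 51.9% against 28.3% at 5 or more. Of its shared peaks 11.9% were wide, against 5.93% of all shared peaks in gene spans. At the receptors, Erbb2, a receptor tyrosine kinase, was 732 bp with entacapone and 739 bp with vehicle, 1.01 kb from the gene end. Notch2 was 794 bp with entacapone and 769 bp with vehicle, 1.86 kb from the gene end. The peaks of Erbb2 and Notch2 differed by 25 bp or less, as did that of Egfr, given below. Those of the receptors Igf1r and Pdgfra, also given below, differed by more. Prag1, also of this list, was 328 bp with entacapone and 853 bp with vehicle, and was met by 2 entacapone peaks.

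Among adaptors and inhibitors of that list, Frs2, an adaptor of fibroblast growth factor receptors, was 463 bp with entacapone and 982 bp with vehicle, and was met by 3 entacapone peaks that summed to 787 bp. Spry1, an inhibitor of receptor tyrosine kinase signalling, was 790 bp with entacapone and 721 bp with vehicle, and Maml2, a coactivator of Notch, was 848 bp with entacapone and 799 bp with vehicle. Pik3r1, the regulatory subunit of phosphoinositide 3-kinase, held 2 wide peaks, of 415 and 548 bp with entacapone, against 422 and 573 bp with vehicle. Sos2, an exchange factor for Ras, held peaks of 421 and 683 bp with entacapone, against 419 and 509 bp with vehicle.

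The insulin receptor substrates and the growth factor receptors that follow were looked up after the values were seen. Irs1, an insulin receptor substrate, was 350 bp with entacapone and 491 bp with vehicle, and was met by 2 entacapone peaks. Irs2, its paralogue, was 483 bp with entacapone and 487 bp with vehicle. Igf1r, the receptor of insulin-like growth factor, was 411 bp with entacapone and 478 bp with vehicle, Egfr was 455 bp with entacapone and 479 bp with vehicle, and Pdgfra, a receptor of stromal progenitors, was 548 bp with entacapone and 447 bp with vehicle. The peaks of Igf1r, Egfr and Pdgfra lay 1.98, 1.92 and 2.81 kb from their gene ends, inside the window from 1 to 5 kb that held 49.7% of the wide peaks. Those of Irs1 and Irs2 lay 4.24 and 3.36 kb from their gene starts and 54.09 and 20.88 kb from their gene ends.

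C2H2 zinc finger transcription factors had the most genes with a shared peak of the 12 lists. Of these 398, 80 (20.1%, 16.3 to 24.4) had a wide one, against 11.4% of all genes, and 91 (22.9%) did by entacapone width, against 16.7%. The share among genes with 1 to 2 vehicle peaks was 16.3%, against 7.30% of all genes. It was 19.3%, against 14.8%, with 3 to 4, and 31.4%, against 28.3%, with 5 or more. The list thus stood farther from all genes where peaks were few. Zfp26 was 622 bp with entacapone and 679 bp with vehicle, and Zbtb22 was 419 bp with entacapone and 739 bp with vehicle. Rest, a repressor of neuronal genes, held 2 wide peaks, of 559 and 674 bp with entacapone, against 474 and 652 bp with vehicle. Zinc finger genes share long, similar coding exons, and reads that fit several of them could be split, so single values in this family are uncertain. The list of other transcription factors, with 18 of 173 (10.4%, 6.28 to 15.9), lay close to the 11.4% of all genes. By entacapone width 31 did (17.9%), against 16.7% of all genes. Irf2bpl, an interferon regulatory factor binding protein, was the widest of that list by vehicle width, at 979 bp with entacapone and 597 bp with vehicle. Hey1, a target of Notch, was 585 bp with entacapone and 557 bp with vehicle.

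Genes of RNA binding and of the m6A machinery itself had a wide peak in 18 of 75 cases (24%, 14.9 to 35.3), against 11.4% of all genes, and in 25 (33.3%) by entacapone width, against 16.7%. At 1 to 2 vehicle peaks the list had 6.67%, against 7.30% of all genes. It had 26.1%, against 14.8%, at 3 to 4, and 45.5%, against 28.3%, at 5 or more. Zc3h13, a subunit of the m6A methyltransferase complex, was 540 bp with entacapone and 543 bp with vehicle. Rbm15b, which guides that complex to RNA, was 675 bp with entacapone and 638 bp with vehicle. Tnrc6b, a paralogue of Tnrc6c, held 2 wide peaks, of 619 and 550 bp with entacapone, against 449 and 447 bp with vehicle. Rbm12 was 563 bp with entacapone and 646 bp with vehicle, and Atxn7, which is also a subunit of the SAGA chromatin complex, was 437 bp with entacapone and 713 bp with vehicle. The list also holds Atxn1l, described above, by its name. The widths of Zc3h13 and Rbm15b thus differed by less than those of Atxn7 or Tnrc6b. Cbll1, the ubiquitin ligase of that complex also called Hakai, was looked up after the values were seen and was 496 bp with entacapone and 529 bp with vehicle.

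Cytoskeletal and scaffold proteins had a wide peak in 20 of 82 genes (24.4%, 15.6 to 35.1), against 11.4% of all genes. By entacapone width 20 did as well (24.4%), against 16.7% of all genes. At 1 to 2 vehicle peaks 1 of 25 did (4.0%, against 7.30% of all genes), and at 5 or more 14 of 37 (37.8%, against 28.3%). Nes, the intermediate filament nestin, held 2, of 517 and 813 bp with entacapone, against 416 and 755 bp with vehicle. Syne1, which joins the nucleus to the cytoskeleton, was 667 bp with entacapone and 698 bp with vehicle. Tanc2, a scaffold of synapses, was 167 bp with entacapone and 699 bp with vehicle, and was met by 2 entacapone peaks. Of the ubiquitin ligases and deubiquitinases, 42 of 240 (17.5%, 12.9 to 22.9) had a wide peak, against 11.4% of all genes. By entacapone width 47 did (19.6%), which lay nearer the 16.7% of all genes. At 1 to 2 vehicle peaks the share with a wide vehicle peak was 13.5%, against 7.30% of all genes. It was 24.1%, against 14.8%, at 3 to 4, and 26.7%, against 28.3%, at 5 or more. Siah1a, a ubiquitin ligase, was 905 bp with entacapone and 672 bp with vehicle. Usp53, of the ubiquitin-specific protease family, held peaks of 624 and 867 bp with entacapone, against 490 and 631 bp with vehicle, both wider with entacapone.

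Immune and interferon genes had a wide peak in 11 of 68 cases (16.2%, 8.36 to 27.1), an interval that holds the 11.4% of all genes, and in 17 (25%) by entacapone width, against 16.7%. At 1 to 2 vehicle peaks 5 of 35 had a wide vehicle peak (14.3%, against 7.30% of all genes). At 3 to 4 it was 6 of 21 (28.6%, against 14.8%), and at 5 or more 0 of 12, against 28.3%. Tnfaip3, the inhibitor of NF-kappaB signalling also called A20, was 577 bp with entacapone and 976 bp with vehicle. Ikzf3, a lymphocyte transcription factor, was 931 bp with entacapone and 911 bp with vehicle. Il10ra, the receptor of interleukin 10, was 809 bp with entacapone and 784 bp with vehicle, and Ccr7, a chemokine receptor of lymphocytes and dendritic cells, was 642 bp with entacapone and 674 bp with vehicle. Wide peaks were thus called, in both libraries, in genes known from lymphoid and myeloid cells, and the part of such cells in the lists was not tested.

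Extracellular matrix and adhesion genes, 21 of 154 (13.6%, 8.64 to 20.1), genes of G protein-coupled receptors, ion channels and Tmem proteins, 26 of 210 (12.4%, 8.25 to 17.6), and genes of DNA replication, repair and mitosis, 5 of 44 (11.4%, 3.79 to 24.6), had intervals that held the 11.4% of all genes. By entacapone width their shares, in the same order, were 14.9%, 15.7% and 20.5%, against 16.7% of all genes. Itga5, the alpha subunit of the fibronectin receptor, was 993 bp with entacapone and 869 bp with vehicle, 0.469 kb from the gene end. Tmem186 was 720 bp with entacapone and 750 bp with vehicle. Lig4, the ligase of DNA end joining, was 527 bp with entacapone and 419 bp with vehicle.

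Adipocyte and thermogenic genes were at the low end, with 1 of 29 genes (3.45%, 0.0873 to 17.8) holding a wide shared peak and 2 by entacapone width. The interval holds the share of all genes, so a lower share was not detectable with so few genes. That gene was Nrip1, which encodes RIP140, a corepressor of energy expenditure genes in fat. Its peaks were 457 and 414 bp with entacapone, against 690 and 407 bp with vehicle, and the first was met by 2 entacapone peaks. None of the 6 adipocyte markers Adipoq, Lep, Pparg, Fabp4, Plin1 and Lipe had a wide shared peak, although 4 had a peak of some width in the entacapone list and 3 in the vehicle list. The 4 markers each of endothelial cells, macrophages, lymphocytes and skeletal muscle had none either, and of 3 fibroblast markers only Pdgfra did. A marker without a vehicle peak cannot hold a wide shared one. A vehicle peak was present for 1 endothelial, 2 macrophage, 3 lymphocyte, 2 skeletal muscle and 1 fibroblast marker. Since 11.4% of all genes with a shared peak held a wide one, so few markers cannot show a lack. A peak list does not measure expression, so the tissue label was not checked by it. Klb, the coreceptor of FGF21 in adipocytes, stood outside this list and held 2 wide peaks, of 416 and 564 bp with entacapone, against 417 and 526 bp with vehicle. In all, 321 of the 951 genes (33.8%) belonged to at least 1 of the 12 lists.

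**Figure D4:**
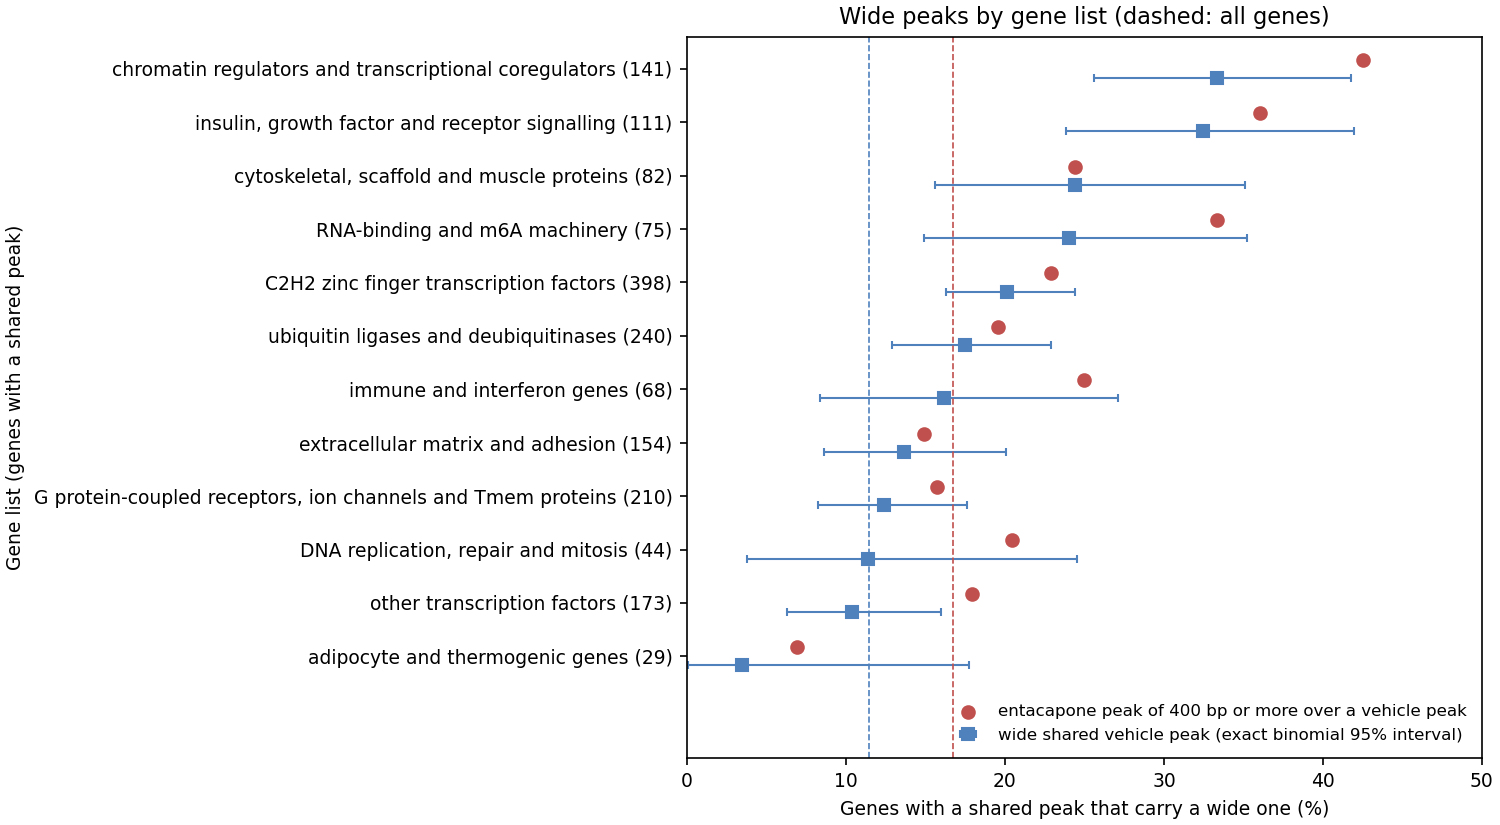
Share in percent of genes with a shared peak that hold a wide one (x axis) for each of the 12 gene lists (y axis, number of genes with a shared peak in brackets). Red circles use an entacapone width of 400 bp or more, and blue squares with exact binomial 95% intervals are the wide shared vehicle peaks. Dashed lines give all genes, 16.7% and 11.4%. Chromatin and signalling genes lie farthest to the right, at 33.3% and 32.4% for the squares, and adipocyte genes farthest to the left, at 3.45%.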

How the data were processed

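The authors used MACS2, TopHat2 2.1.1 and mm10, per the submitters' processing notes. The counting tool, and MACS2's version and thresholds, were not stated in those notes or the labels. The deposited IP files are 1 peak list per library, whose unlabelled column was read as the authors' linear fold, a ratio of IP over input. The deposited input files hold raw counts for 37315 Ensembl identifiers, of which only totals were used. Whether starts count from 0 or 1 is not stated.

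Overlaps, widths and positions were computed with Python 3.11.15, pandas 2.3.3 and scipy 1.17.1, tested on simulated intervals and checked with bedtools. A peak was given the gene whose RefSeq GRCm38.p6 span holds its midpoint, protein-coding first, then the shorter. Strands came from the promoter table. Shares carry exact Clopper-Pearson 95% intervals, and medians order-statistic intervals; these treat peaks or genes as independent, which they are not.

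The members and gene lists were chosen with earlier results of these data known. Named genes are the widest, those of largest fold or width difference, those with 2 or more members, up to 6 per list by vehicle width, and those at the threshold. Motif counts within peaks and input levels of genes were planned and not run, since no genome sequence was used and no table paired the identifiers with symbols.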

Additional observations from a re-analysis of the deposited data

How the results depend on the processing

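Across 7 results and 28 alternatives, 17 values stayed within the tolerance set for their kind, 10 moved and 1 reversed. The tolerance was 1.5 times for the number of peaks and the main value's 95% interval for medians and shares, so 738 against 1051 peaks counts as within it. The number of wide shared peaks was 1051, and 2293 with a width of 300 bp or 505 with 500 bp; it was 998 with at least 50% of the vehicle peak covered, 937 by midpoint, 738 with both peaks wide, 977 with both folds at least 2, and 1055 with starts counted from 1. The median entacapone minus vehicle width, -11.0 bp, became 5.0 bp when the span of all overlapping entacapone peaks was taken, -2.0 bp at 300 bp and -23.0 bp at 500 bp. The share within 1 kb of the nearer gene end, 20.3%, was 9.71% within 500 bp and 26.4% from the nearer edge. Of chromatin regulators, 48.2% had a wide peak at 300 bp and 21.3% at 500 bp, and of signalling genes 52.3% and 21.6%, against 22.9% and 5.69% of all genes. The settings for these lists, and for the share within 5 kb of the gene end (66.5% to 68.2%), were chosen after seeing the data. Alternatives on input identifiers were not run. No paired analysis was possible because each kind has 1 library. With 1 IP library per treatment of unknown depth, no difference in width or overlap can be tested between treatments.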
